A study of Mus musculus with 6 samples.

Results

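The bone morphogenetic protein (BMP) ligands and receptors are described here by 10 genes, chosen by symbol from the 34745 genes in the deposited table. The ligand genes were Bmp2, Bmp4, Bmp6 and Bmp7. The type I receptor genes were Bmpr1a, Bmpr1b and Acvr1, and the type II receptor genes were Bmpr2, Acvr2a and Acvr2b. Their RNA was measured in primary mouse renal fibroblasts of WT genotype, in 3 libraries from cells cultured alone and 3 libraries from cells cocultured with Th17 cells, the helper T cells that make interleukin-17. For coculture, Th17 cells sat for 24 h in a transwell insert with pores of 0.4 µm, so the cell types shared medium while only the fibroblasts beneath were sequenced. The Th17 cells had been made in culture from CD4+ T cells with interleukin-1β, interleukin-6, interleukin-23 and an antibody to interferon-γ. The fibroblasts were grown from whole digested kidney in fibroblast medium and no sorting step is described, so other kidney cells could be present. Whether lone wells held an empty insert, and whether replicate libraries derive from separate cultures or animals, is not stated in the sources used here. All p-values below therefore measure the spread between these libraries, which may be technical. The study kept Balb/c mice, and neither the age nor the strain of the mice behind these cultures is given in the labels.

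BMPs are secreted dimers of the transforming growth factor-β superfamily that bind a complex of type I and type II serine/threonine kinase receptors. The type II receptor phosphorylates the type I receptor, which phosphorylates Smad1, Smad5 and Smad9, and these enter the nucleus with Smad4. BMP2 and BMP4 bind mainly the type I receptors BMPR1A and BMPR1B, whereas BMP6 and BMP7 also use ACVR1, and the type II receptors ACVR2A and ACVR2B are shared with activins. In the kidney, BMP7 is known from nephron development and as a factor of tubular epithelium, and secreted antagonists such as gremlin and noggin bind the ligands outside the cell.

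Library totals lay between 12050529 and 13209581 fragment counts, and 13088 genes had enough counts to test. Lone and cocultured libraries lay apart on the first principal component of log2 CPM (counts scaled to a common library total), which carried 76.8% of the variance. At this depth 3 counts corresponded to between 0.223 and 0.254 CPM, and this floor reflects counting error alone, since fragments carry no molecular identifiers. All 8 fibroblast markers examined were expressed, with Col1a1 at 2126 ± 96.5 FPKM and Vim at 257 ± 10.6 FPKM in lone fibroblasts (SD, n = 3). FPKM is the fragment count scaled to gene length and to the library total, as deposited. T cell RNA was near absent from the collected cells. All 8 T cell markers had fewer than 10 counts over the 6 libraries, Cd3d, Cd8a, Il17a and Il17f were at 0, and the summed level of the list was 0 to 0.466 CPM in lone and 0 to 0.456 CPM in cocultured libraries.

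The comparison asked which BMP ligand and receptor transcripts differ in fibroblasts exposed to Th17 cells. The ligand genes moved in opposite directions. Bmp2 rose 3.46-fold, while Bmp4 fell 23.7-fold and Bmp6 fell 2.90-fold. Among receptors, the type I receptor gene Bmpr1b rose 1.51-fold and the type II receptor gene Acvr2a rose 1.56-fold, and no difference was detected for Bmpr1a, Acvr1 or Bmpr2. Of the 10 genes, 8 had enough counts to be tested and 5 of these passed an adjusted p of 0.05 in the quasi-likelihood test of edgeR (Benjamini-Hochberg), against 37.1% of all genes tested. The 3 that were higher stand against a background of 17.1% of genes tested, and the 2 that were lower against 20.0%. With a fold change above 2 as a further limit, 3 of the 8 passed (Bmp2, Bmp4 and Bmp6), against 11.6% of all genes tested. The 1 higher gene among them compares with 3.87% of genes tested and the 2 lower genes with 7.78%. The CPM of the groups did not overlap for the same 5 genes that passed the adjusted p, and 50.4% of all genes tested likewise showed no overlap. With 8 genes these counts describe the set and do not set it apart from other genes. The median log2 fold change was 0.06 over the 8 genes and 0.00 over all genes tested. Bmp4 reached the minimum count only through the lone libraries, so its presence among the tested genes already favours a difference.

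**Figure D1:**
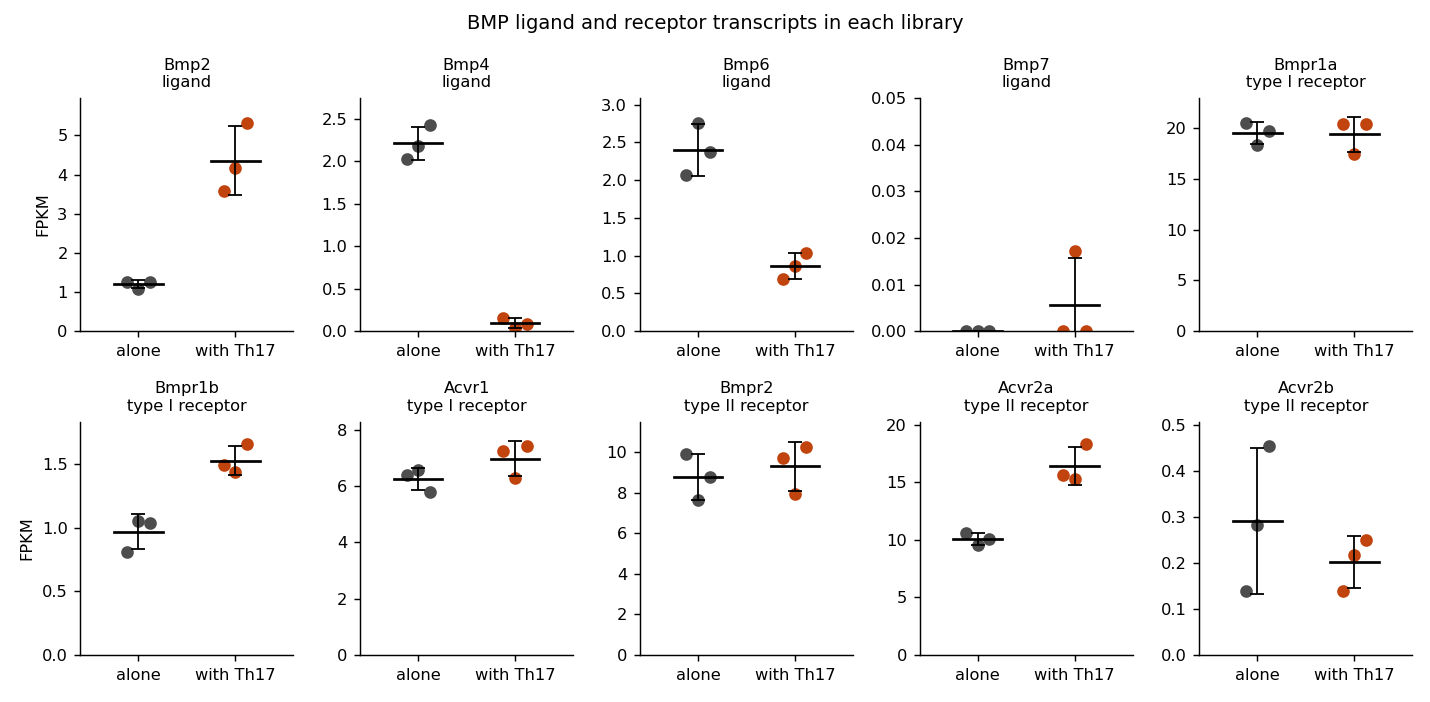
FPKM of the 10 BMP ligand and receptor genes, 1 panel per gene on a linear axis from 0, with points for the 3 lone and the 3 cocultured libraries, a line at the mean and bars of 1 SD. Bmp2 sits higher and Bmp4 and Bmp6 lower after coculture with no overlap between groups, the groups overlap for Bmpr1a, Acvr1 and Bmpr2, and Bmp7 is at or near 0.

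Bmp2 encodes a ligand that is best known for inducing bone and that signals mainly through BMPR1A and BMPR1B. The gene (ENSMUSG00000027358, chromosome 2, 133552159 to 133562885 on the plus strand of mm10) had 1.26, 1.09 and 1.26 FPKM in the lone libraries and 3.59, 4.17 and 5.30 FPKM in the cocultured libraries. Every cocultured library was above every lone one, and cocultured replicate 3 was highest. In CPM the level went from 4.36 ± 0.359 to 15.1 ± 2.96 (SD, n = 3 each). The log2 fold change was 1.79 (standard error 0.176, 95% interval 1.39 to 2.19, adjusted p = 5.43e-05 by edgeR). The gene moved from percentile 21.7 to percentile 49.7 of FPKM among the genes tested, close to the middle of that distribution.

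Bmp4 encodes the ligand most similar to BMP2 and has the same preferred receptors. Its counts were 103, 108 and 112 in lone fibroblasts (ENSMUSG00000021835, chromosome 14, 46383520 to 46390669, minus strand) and 8, 2 and 4 after coculture. The cocultured libraries were thus close to the limit of detection, and none came near a lone library. Mean CPM fell from 8.66 ± 0.747 to 0.352 ± 0.223 (SD, n = 3 each; log2 fold change −4.57, standard error 0.311, 95% interval −5.27 to −3.86, adjusted p = 4.71e-06 by edgeR). Without cocultured replicate 1, which held most of the remaining counts, the fall was 35.8-fold. On the log2(FPKM + 1) scale, where the pseudocount of 1 shrinks changes at low levels, limma gave −1.55. Bmp4 shares 89 exon bases with Gm15217 on the opposite strand, a gene with 0 counts in every library, and spans the antisense gene Gm15222 without sharing exon bases.

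Bmp6 encodes a ligand of another subgroup, known for control of iron balance through hepcidin. Its FPKM values were 2.07, 2.76 and 2.38 in lone fibroblasts (ENSMUSG00000039004, chromosome 13, 38345716 to 38499728, plus strand) and 0.694, 0.861 and 1.04 after coculture. The lowest lone library lay above the highest cocultured one, so the groups did not overlap. CPM fell from 5.92 ± 0.839 to 2.04 ± 0.399 (SD, n = 3 each; log2 fold change −1.53, standard error 0.218, 95% interval −2.03 to −1.04, adjusted p = 0.000554 by edgeR). On the log2(FPKM + 1) scale limma gave −0.87, which is under a fold change of 2. Bmp7, the ligand tied to kidney epithelium, had 0 counts in 5 libraries and 1 count in cocultured replicate 2. It was at or under the floor in both groups (ENSMUSG00000008999, chromosome 2, 172868012 to 172940321, minus strand), so no fold change is given.

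The fall of Bmp4 and Bmp6 came with lower levels of some markers of other cell types. Among 8 macrophage markers, 6 had enough counts and 5 fell (Adgre1, Csf1r, Cd68, Lyz2 and Ptprc), and the summed level of the list went from between 57.4 and 60.7 CPM to between 19.8 and 21.1 CPM, with Adgre1 and Ptprc at 0 counts in each cocultured library. Adgre1, Ptprc, Kdr and Lrp2 reached the minimum count through the lone libraries, so they could hardly be called other than lower. Of 8 endothelial markers 3 were tested and 1 was lower (Kdr), with a summed level of 9.95 to 10.2 CPM and then 5.17 to 5.89 CPM, and Tie1 and Emcn at 0 throughout. Of 8 epithelial markers 3 were tested and 1 was lower (Lrp2), with a summed level of 4.99 to 6.40 CPM and then 2.38 to 2.74 CPM, and Umod at 0 throughout. The numbers of lower markers stand beside 20.0% lower over all genes tested. With 3 markers tested, 1 lower marker does not stand apart from that share. Fibroblast markers moved as well, with Dcn higher, the other 7 lower and a summed level that went from between 29719 and 31579 CPM to between 13394 and 14882 CPM. The part of these markers in the changes of BMP genes was not tested. In RNA from whole cultures, fewer cells of a type and less RNA per cell cannot be told apart.

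Upstream sequence is shown for the 3 changed genes whose RefSeq start falls on the first base of the gene as deposited, 2 that fell (Bmp4 and Bmp6) and 1 that rose (Acvr2a). Each line gives the 250 bases before the start, read 5′ to 3′ on the strand of the gene, from RefSeq on GRCm38.p6. The windows are chr14:46390670-46390919 (minus strand) for Bmp4, chr13:38345466-38345715 (plus strand) for Bmp6 and chr2:48813859-48814108 (plus strand) for Acvr2a. Capitals mark the GC box GGGCGG on either strand.
Bmp4: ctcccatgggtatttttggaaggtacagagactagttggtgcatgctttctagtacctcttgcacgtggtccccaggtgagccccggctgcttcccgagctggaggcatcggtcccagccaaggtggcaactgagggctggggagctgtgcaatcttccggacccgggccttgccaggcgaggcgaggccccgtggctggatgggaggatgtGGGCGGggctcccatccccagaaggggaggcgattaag
Bmp6: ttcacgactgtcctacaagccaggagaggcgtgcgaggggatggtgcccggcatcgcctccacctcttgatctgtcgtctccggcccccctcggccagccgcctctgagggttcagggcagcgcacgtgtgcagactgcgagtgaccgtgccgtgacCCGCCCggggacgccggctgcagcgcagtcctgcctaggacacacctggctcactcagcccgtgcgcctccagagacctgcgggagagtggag
Acvr2a: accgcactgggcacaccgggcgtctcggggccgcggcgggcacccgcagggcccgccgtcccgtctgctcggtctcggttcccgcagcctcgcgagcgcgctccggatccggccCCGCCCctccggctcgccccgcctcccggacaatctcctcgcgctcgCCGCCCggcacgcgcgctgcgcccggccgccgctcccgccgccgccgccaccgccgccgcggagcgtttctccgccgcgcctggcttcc
All 3 windows were rich in G and C, at 63.2% for Bmp4, 68.8% for Bmp6 and 82.0% for Acvr2a, against a median of 52.4% over 32851 promoters of the same length. They held 11, 22 and 49 CpG dinucleotides, against a median of 6. Bmp4 and Bmp6 held 1 GC box each and Acvr2a held 2, and this motif occurs in 32.7% of all promoters. The other motifs searched on both strands were CCAAT (33.8% of promoters), TATAAA (12.4%), the AP-1 motif TGANTCA (6.75%), the NF-κB motif (GGG and TTTCC with any 2 bases between, 1.41%), the STAT motif TTCNNNGAA (7.02%) and the SMAD element GGCGCC (9.59%), and none of these letters occurred in the 3 windows. A match is a description of the letters, and neither a match nor its absence shows binding of a factor.

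Each ligand was taken as a share of the summed FPKM of the 4 ligand genes. The makeup of ligand RNA turned over, while its total in deposited FPKM and in counts stayed in the same range. Bmp2 made up 23.4%, 18.1% and 20.8% of ligand FPKM in the lone libraries and 80.8%, 81.9% and 82.6% in the cocultured libraries. Bmp4 made up 37.9%, 36.2% and 40.0% in lone fibroblasts and 3.57%, 0.817% and 1.27% after coculture. Bmp6 went from 41.2% ± 3.98 to 16.2% ± 0.645 (SD, n = 3 each). Lone fibroblasts therefore held mostly Bmp4 and Bmp6 transcripts, 79.2% ± 2.69 between them, and cocultured fibroblasts mostly Bmp2 transcripts, 81.8% ± 0.882. The split between Bmp4 and Bmp6 depends on the gene length used. Deposited FPKM implied 3834 bases for Bmp4 and 2410 for Bmp6, while the longest coding transcripts in GENCODE have 2064 and 3593. In counts the lone libraries held 103, 108 and 112 of Bmp4 against 66, 86 and 69 of Bmp6. The summed ligand FPKM was 5.36, 6.02 and 6.06 in lone fibroblasts and 4.45, 5.09 and 6.42 in cocultured fibroblasts, and these ranges overlap. In counts the sums were 228, 244 and 235 against 198, 215 and 277. The overlap is stated for deposited FPKM and counts only. With GENCODE lengths the ratio of ligand to receptor RNA went from 0.112 to 0.0710 with no overlap. The ratio of Bmp2 to Bmp4 FPKM was between 0.499 and 0.618 in lone libraries and between 22.6 and 100.3 in cocultured libraries, where its spread comes from 2 to 8 counts of Bmp4. The ratio of Bmp2 to Bmp6, which rests on more counts, went from 0.510 ± 0.107 to 5.04 ± 0.172 (SD, n = 3 each). Shares and ratios over chosen genes are given as descriptions with no test.

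**Figure D2:**
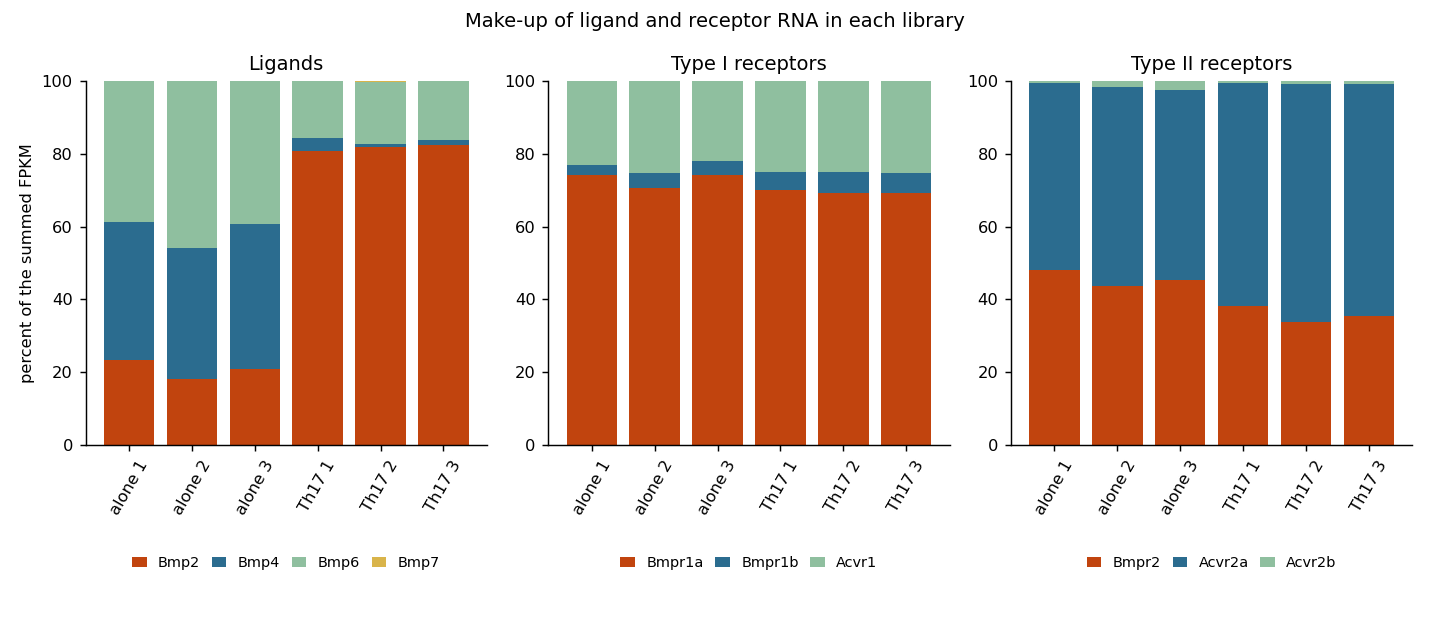
Share of summed FPKM (percent) held by each ligand gene, each type I receptor gene and each type II receptor gene in the 3 lone and the 3 cocultured libraries, as stacked bars that each add to 100. The Bmp2 share is between 18.1% and 23.4% in lone and between 80.8% and 82.6% in cocultured libraries, while the receptor bars shift by less.

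Other BMP and GDF ligands set these shares in context. Gdf11 was listed with the activin class and is left out of this list. Of its 14 further ligand genes 13 were in the table and only Gdf6 had enough counts to test. Gdf6, a growth and differentiation factor known from joint and skeletal patterning, was above the other ligands of this list and the 4 BMP ligands, at 15.4 ± 0.459 FPKM in lone and 13.3 ± 0.790 FPKM in cocultured fibroblasts (SD, n = 3 each). Its log2 fold change was −0.27 (standard error 0.076, adjusted p = 0.0199 by edgeR). That call was lost with library size as the only scaling (−0.21) and without lone replicate 1 (−0.25), lone replicate 2 (−0.27) or cocultured replicate 2 (−0.25). Gdf6 made up 70.2% ± 1.87 of the summed FPKM of this list and the 4 BMP ligands before and 68.9% ± 4.63 after coculture, with overlapping ranges. On that wider base Bmp2 went from 5.48% ± 0.490 to 22.5% ± 3.97, Bmp4 from 10.1% ± 0.957 to 0.481% ± 0.30 and Bmp6 from 10.9% ± 1.51 to 4.46% ± 0.824 (SD, n = 3 each). With Gdf11 added to the sum, Gdf6 held 55.7% ± 1.83 and then 38.5% ± 1.51, Gdf11 held 20.8% ± 0.9 and then 44% ± 1.92, and Bmp2 held 4.34% ± 0.350 and then 12.6% ± 2.6 (SD, n = 3 each). The statement that Bmp2 was the main ligand transcript thus holds among the 4 genes chosen and not on either wider base.

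Receptor RNA was far more abundant than ligand RNA in both groups. Bmpr1a, the type I receptor through which BMP2 and BMP4 chiefly signal, was the highest of the 10 genes (ENSMUSG00000021796, chromosome 14, 34410734 to 34503341, minus strand). It had 20.5, 18.4 and 19.7 FPKM in lone and 20.4, 17.4 and 20.4 FPKM in cocultured libraries. The ranges overlapped almost fully. The change in CPM was −5.05% with a 95% interval from −16.1% to 7.39% (adjusted p = 0.494 by edgeR). Bmpr1a shares 290 exon bases with the antisense gene Gm17110, which had at most 6 counts in a library.

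Bmpr1b, the close relative of Bmpr1a known from cartilage and digit formation, was much lower, at 0.814, 1.06 and 1.04 FPKM in lone and 1.49, 1.44 and 1.66 FPKM in cocultured libraries. The groups did not overlap. The log2 fold change was 0.59 (ENSMUSG00000052430, chromosome 3, 141837136 to 142169425, minus strand; standard error 0.136, 95% interval 0.29 to 0.90, adjusted p = 0.00782 by edgeR). Acvr1, also called ALK2, is the type I receptor used by BMP6 and BMP7. Its FPKM values were 6.38, 6.59 and 5.80 in lone and 7.24, 6.29 and 7.42 in cocultured libraries, which overlap (ENSMUSG00000026836, chromosome 2, 58388644 to 58567157, minus strand). The change in CPM was 6.74% with a 95% interval from −7.33% to 22.9% (adjusted p = 0.451 by edgeR).

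Bmpr2 is the type II receptor specific to BMPs and the gene mutated in heritable pulmonary hypertension. It had 9.93, 7.65 and 8.76 FPKM in lone and 9.71, 7.96 and 10.3 FPKM in cocultured libraries (ENSMUSG00000067336, chromosome 1, 59763400 to 59879014, plus strand). The replicates of each group spread more widely than the groups differed. The change in CPM was 1.41% with a 95% interval from −15.3% to 21.4% (adjusted p = 0.911 by edgeR), and its sign turned in 3 of the 6 fits that each left out 1 library.

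Acvr2a is a type II receptor that binds activins and several BMPs, BMP6 and BMP7 among them. It had 10.6, 9.58 and 10.1 FPKM in lone and 15.6, 15.3 and 18.3 FPKM in cocultured libraries (ENSMUSG00000052155, chromosome 2, 48814109 to 48903269, plus strand). Every cocultured library was above every lone one. The log2 fold change was 0.64 (standard error 0.085, 95% interval 0.45 to 0.83, adjusted p = 0.000370 by edgeR), and the CPM went from 66.1 ± 3.53 to 103 ± 9.74 (SD, n = 3 each). Acvr2a shares 446 exon bases with Orc4 on the opposite strand, and the sources used here do not say whether counting used strand. Orc4, a subunit of the origin recognition complex, had a log2 fold change of 0.08 (standard error 0.099, adjusted p = 0.585 by edgeR). Acvr2b, the second activin type II receptor, had 4, 8 and 12 counts in lone and 4, 6 and 7 counts in cocultured libraries (ENSMUSG00000061393, chromosome 9, 119402444 to 119433501, plus strand). It was too low to test, and with no filter on low counts its log2 fold change was −0.57 (adjusted p = 0.548 by edgeR).

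**Figure D3:**
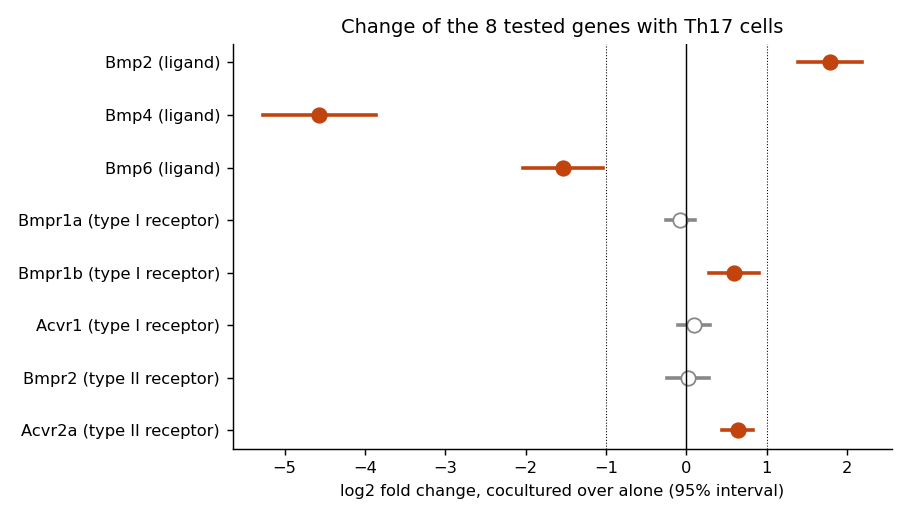
Log2 fold change, cocultured against alone, of the 8 tested BMP ligand and receptor genes with 95% intervals, filled points for genes past an adjusted p of 0.05 by edgeR, and dotted lines at a fold change of 2. The intervals of Bmp2, Bmpr1b and Acvr2a lie above 0, those of Bmp4 and Bmp6 lie below 0, and those of Bmpr1a, Acvr1 and Bmpr2 include 0.

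The balance between receptor transcripts moved less than that between ligands. Among type II receptors, Bmpr2 held 48.0%, 43.7% and 45.3% of the FPKM in lone libraries and 38.1%, 33.9% and 35.6% in cocultured libraries, while Acvr2a held 52.8% ± 1.72 and then 63.4% ± 1.93 (SD, n = 3 each). The ratio of Acvr2a to Bmpr2 FPKM went from 1.16 ± 0.0910 to 1.78 ± 0.158, with no overlap. Which of the pair was higher in lone fibroblasts depends on the gene length used. With the longest coding transcript in GENCODE in place of the length behind the deposited FPKM, the ratio was 0.916 ± 0.0719 in lone and 1.40 ± 0.125 in cocultured fibroblasts. Among type I receptors, Bmpr1a held 73.0% ± 2.05 and then 69.5% ± 0.458, Acvr1 held 23.4% ± 1.77 and then 25.02% ± 0.174, and Bmpr1b held 3.64% ± 0.616 and then 5.50% ± 0.321 (SD, n = 3 each). The Bmpr1a shares of 74.1%, 70.6% and 74.2% in lone libraries lay only just above those of 70.0%, 69.3% and 69.2% in cocultured libraries. The size of these shares also depends on the gene length used. With GENCODE lengths, chosen after seeing the data, Bmpr1a held 60.1% of type I receptor RNA and then 56.0%. Bmpr2 held 51.8% of type II receptor RNA and then 41.5% with these lengths, and 71.0% and then 61.7% in counts.

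Summed type II receptor FPKM was 19.2 ± 1.6 in lone and 26.0 ± 2.70 in cocultured fibroblasts with no overlap, and summed type I receptor FPKM was 26.8 ± 0.880 and 27.9 ± 2.38 with overlap (SD, n = 3 each). The ratio of type II to type I receptor FPKM was accordingly 0.747, 0.673 and 0.728 in lone libraries and 0.876, 0.934 and 0.980 in cocultured libraries. Every cocultured library had a higher ratio than every lone one. The ratio of ligand to receptor FPKM was 0.127 ± 0.0145 in lone and 0.0988 ± 0.0153 in cocultured fibroblasts. Its highest cocultured library, at 0.1102, was next to its lowest lone library, at 0.1108, and in counts the groups overlapped. With GENCODE lengths, chosen after seeing the data, the ratio went from 0.112 to 0.0710 with no overlap. With the wider list and Gdf11 the sign of the difference turned (0.0383). The result thus depends on the lengths and genes chosen, and no difference in this ratio is read from these data.

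Ranked by FPKM in lone fibroblasts, the order was Bmpr1a, Acvr2a, Bmpr2, Acvr1, Bmp6, Bmp4, Bmp2, Bmpr1b, Acvr2b and Bmp7. The ranges of Acvr2a and Bmpr2 overlapped, as did those of Bmp6 and Bmp4, and the other neighbours were apart. After coculture the order was Bmpr1a, Acvr2a, Bmpr2, Acvr1, Bmp2, Bmpr1b, Bmp6, Acvr2b, Bmp4 and Bmp7, with overlap between Bmpr1a and Acvr2a and between Acvr2b and Bmp4. On the deposited FPKM the 4 highest ranks went to receptor genes in both groups, and the changes of rank lay among the ligands, Bmpr1b and Acvr2b. The order depends on the gene length used. That length differed from the longest GENCODE coding transcript for Acvr1 (6977 against 3293 bases) and Bmpr2 (18350 against 12899 bases). It also differed for Bmpr1b (10139 against 5349 bases), Bmp4 (3834 against 2064 bases) and Bmp6 (2410 against 3593 bases). The orders above, and which neighbours overlapped, are therefore stated for deposited FPKM only, and the full order was not recomputed with GENCODE lengths. With GENCODE lengths Acvr2a was below Bmpr2 in lone fibroblasts (ratio 0.916) and above it after coculture (1.40), so receptor ranks changed as well. Bmpr1a stood at percentile 83.5 of the FPKM of all genes tested in lone fibroblasts, and Bmp4 moved from percentile 33.9 to percentile 1.88. Spread between replicates differed by gene. The coefficient of variation of CPM in lone fibroblasts was 5.34% for Acvr2a, 5.71% for Bmpr1a and 14.2% for Bmp6, and after coculture it was 63.3% for Bmp4. By CPM, cocultured replicate 3 was the highest of its group for 7 of the 10 genes, replicate 1 for 2 genes and replicate 2 for 1 gene. The gene of replicate 2 was Bmp7, on 1 count, and Bmp4 and Acvr2b were also close to the floor. The share over all genes was not computed, so this describes these genes only.

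Genes around the ligands and receptors in the pathway were then examined, in lists chosen by role. The numbers of genes called higher or lower in each list stand beside 17.1% higher and 20.0% lower over all genes tested. Genes outside the naming rule are also named in these lists, a choice made after their values were seen. Among ligands of the activin class, which share ACVR2A and ACVR2B, 4 of 8 were tested, 2 were higher and none was lower (median log2 fold change 0.46). These were Gdf11, from 5.75 ± 0.271 to 15.2 ± 0.731 FPKM (SD, n = 3 each; log2 fold change 1.34, standard error 0.080, adjusted p = 2.06e-06 by edgeR), and Inhbb at 0.99 (standard error 0.145, adjusted p = 0.000654 by edgeR). Inhba, which encodes the subunit of activin A, was far more abundant than any BMP ligand, at 149 ± 3.11 and 148 ± 10.7 FPKM, and no difference was detected (−0.07, adjusted p = 0.447 by edgeR). Inha, the inhibin subunit, had a log2 fold change of −0.39 (adjusted p = 0.0735 by edgeR).

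Among 6 further receptors, 4 were tested and 1 was lower (median −0.05). This was Acvrl1, the endothelial type I receptor ALK1, at −0.75 (standard error 0.233, adjusted p = 0.0318 by edgeR), and it passed in 10 of 14 alternatives. Without lone replicate 1 it was at −0.45 with an edgeR adjusted p of 0.111. Tgfbr2, the type II receptor of transforming growth factor-β, had more RNA than any BMP receptor, at 28.3 ± 0.514 and 31.7 ± 1.31 FPKM, with a log2 fold change of 0.10 (adjusted p = 0.247 by edgeR). Of the co-receptors and decoys, 6 of 10 listed symbols were tested and 3 were lower, none higher (median −0.22). The endothelial and stromal co-receptor Eng was at −0.53, the co-receptor Tgfbr3 at −0.28 and the decoy receptor Bambi at −0.92 (adjusted p = 0.000573, 0.00823 and 0.00335 by edgeR).

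Extracellular antagonists and modulators moved in both directions. Of 15 genes 11 were tested, 3 were higher (Nog, Grem1 and Crim1) and 7 were lower (Chrd, Fst, Fstl1, Fstl3, Bmper, Twsg1 and Kcp), with a median of −0.56. Grem1, whose product gremlin binds BMP2 and BMP4, had 35.5, 35.5 and 31.5 FPKM in lone and 558, 522 and 654 FPKM in cocultured libraries (log2 fold change 4.02, adjusted p = 2.08e-08 by edgeR). Its FPKM was 5.90 ± 0.710 times the summed FPKM of the 4 ligand genes in lone fibroblasts and 110 ± 13.5 times that sum after coculture (SD, n = 3 each). These multiples rest on the 4 genes and are smaller on the wider bases. There the ligand sums were 21.9 and then 19.4 FPKM, or 27.7 and then 34.6 FPKM with Gdf11. Nog, which encodes noggin, went from 0.612 ± 0.198 to 2.44 ± 0.359 FPKM (SD, n = 3 each; 1.91, adjusted p = 0.000709 by edgeR). It reached the minimum count in 3 libraries only with the cocultured ones, where it is higher. Chrd, which encodes the antagonist chordin, fell from 0.848 ± 0.208 to 0.251 ± 0.0287 FPKM (SD, n = 3 each; −1.81, standard error 0.227, adjusted p = 0.000261 by edgeR), and it shares exon bases with Thpo on the opposite strand. Bmper fell from 59.7 ± 1.95 to 19.5 ± 2.10 FPKM and Kcp from 0.643 ± 0.0141 to 0.275 ± 0.0798 FPKM (SD, n = 3 each; adjusted p = 5.26e-07 and 0.00138 by edgeR). Both encode proteins with chordin-type repeats, and Kcp also overlaps genes on the opposite strand. On the log2(FPKM + 1) scale limma gave smaller changes for the genes of low level, 1.10 for Nog, −0.56 for Chrd and −0.37 for Kcp.

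Enzymes that process ligands and antagonists also moved in both directions, with 3 of 6 tested higher and 2 lower (median 0.33). Pcsk5, a proprotein convertase, went from 2.27 ± 0.217 to 10.4 ± 0.405 FPKM, and Pcsk6, a related convertase, from 1.05 ± 0.152 to 0.217 ± 0.0175 FPKM (SD, n = 3 each; log2 fold changes 2.13 and −2.33, adjusted p = 2.05e-07 and 1.48e-05 by edgeR). Pcsk6 shares exon bases with Gm45213 on the same strand, and limma on log2(FPKM + 1) gave −0.75 for it. Furin, the convertase best known for cleaving BMP precursors, rose by 0.58, Tll1, a tolloid protease that cleaves chordin, rose by 0.77, and Bmp1, a protease of the same family and not a BMP ligand, fell by 0.37 on the log2 scale (adjusted p = 0.000131, 0.00118 and 0.00117 by edgeR).

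Inside the cell, 2 of 6 Smad genes were higher and none lower (median 0.03). Smad9 went from 0.297 ± 0.0175 to 1.012 ± 0.169 FPKM (SD, n = 3 each; log2 fold change 1.70, adjusted p = 0.000312 by edgeR, and 0.63 by limma on log2(FPKM + 1)) and remained far below Smad1, at 9.63 and 8.83 FPKM, and Smad5, at 4.04 and 4.39 FPKM. The inhibitory Smad7 rose by 0.66 on the log2 scale (adjusted p = 0.00142 by edgeR). Of 6 genes for receptor and Smad turnover, all tested, only Nedd4l was lower (−0.27, adjusted p = 0.0138 by edgeR), and it passed in 12 of 14 alternatives, with an edgeR adjusted p of up to 0.0629 (without lone replicate 2). Of 14 BMP target genes 11 were tested, 4 were higher (Id2, Id4, Smad7 and Smad9) and 1 was lower (Bambi), with a median of 0.31 and 2 of these shared with the Smad list. The log2 fold change was 0.59 for Id2 and 0.60 for Id4, and Id4 passed in 8 of 14 alternatives, with an edgeR adjusted p of up to 0.0922 (without cocultured replicate 2). Id1 and Id3, the targets most often used to read BMP signalling, were at 0.31 and −0.05 (adjusted p = 0.126 and 0.585 by edgeR). RNA of target genes at 24 h is not a measure of Smad phosphorylation. By Western blot of cocultured fibroblasts, the paper reports more Bmp2 protein and more phosphorylation of Smad1, Smad5 and Smad9.

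**Figure D4:**
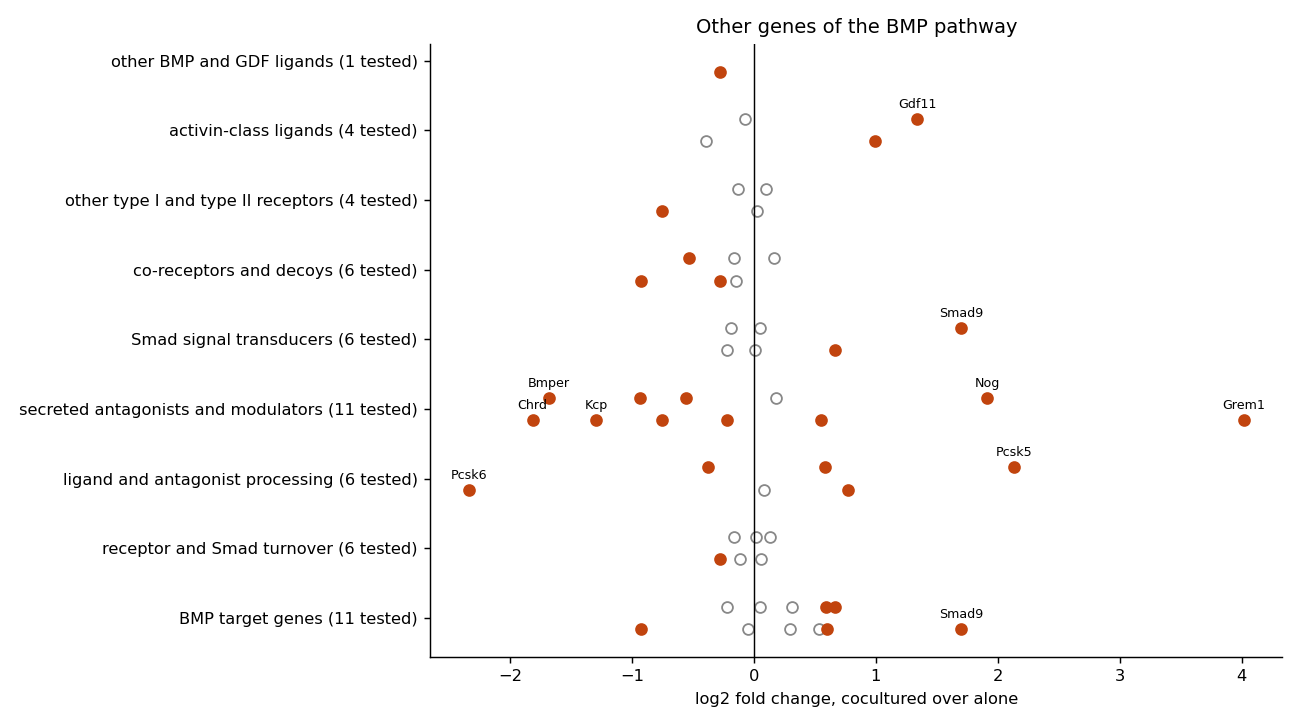
Log2 fold change, cocultured against alone, of every tested gene of the pathway lists, 1 row per role, with filled points for genes past an adjusted p of 0.05 by edgeR and open points for the rest. Names mark the genes that also passed a fold change of 2. Antagonists spread from −1.81 (Chrd) to 4.02 (Grem1), while Smads and turnover genes mostly lie near 0.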

How the data were processed

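RNA from primary mouse renal fibroblasts, grown alone or beneath Th17 cells (3 libraries each), was sequenced on an Illumina platform from VAHTS libraries. The authors filtered reads with Seqtk, and the submitters' processing notes name HISAT2 2.0.4, StringTie 1.3.3b, edgeR and the build mm10. They deposited raw fragment counts per gene and, beside each count, an FPKM value, which the authors normalized by library total and gene length. In 12102 genes, FPKM and count implied 1 gene length in every library within 1%. Strand use and the handling of fragments that fit several genes are not given in the sources used here. Samples were grouped by title and columns by description.

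Counts of 13088 genes kept by filterByExpr were scaled by TMM and tested across all 6 libraries with edgeR 4.0.16 in R 4.3.3 (glmQLFit and glmQLFTest, Benjamini-Hochberg over all genes tested). The thresholds were an adjusted p of 0.05 taken from the study's methods and, where stated, its fold limit of 2. The SE is the log2 fold change divided by the square root of F, and the biological coefficient of variation was 11.6%. CPM use TMM library sizes, and levels of different genes were compared in FPKM. Shares and ratios were computed per library with no test. Counts of 13088 genes were simulated for this comparison, with 200 changed by 2-fold or more. Of these edgeR recovered 94.5% with 7 unchanged genes called, DESeq2 1.42.0 95.5% with 11, and limma 3.58.1 94% with 14. Smaller changes, such as those of Bmpr1b and Acvr2a, were not simulated, so the recovery does not cover them. In the data 37.1% of genes tested were called, a far larger share than was changed in the simulation.

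The 10 genes and the lists were chosen with earlier results of these data known. 1 gene was left out of a pathway list and is not reported here. Named by rule from each pathway list were genes past both thresholds (at most the 3 highest and 3 lowest) and genes with more FPKM than the highest BMP gene of their role, besides genes overlapping 1 of the 10. Symbols on several rows (59) were read from the row with most counts. Positions are as deposited on mm10, and upstream sequence is from RefSeq on GRCm38.p6, where 8 of the 10 genes had an entry. Libraries of the same group differed by a chi-square statistic of at least 6.07 per gene, so none was a copy. Alternatives were DESeq2, upper quartile factors, library size only, relative log expression factors, no filter, at least 10 counts in every library, limma on log2(FPKM + 1), a replicate block, leaving out each library and, for shares, counts, a wider family and (both chosen after seeing the data) Gdf11 added to it and GENCODE transcript lengths. Python 3.11.15, pandas 2.3.3 and matplotlib 3.10.9 were used for tables and figures.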

Additional observations from a re-analysis of the deposited data

How the results depend on the processing

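Bmp2, Bmpr1b and Acvr2a (higher) and Bmp4 and Bmp6 (lower) passed the adjusted p in each alternative that could test them. With at least 10 counts in every library Bmp4 was not tested, which left 1 lower gene and 4 of the 10 genes called. Leaving out each library in turn gave 5 to 5 genes called, 3 to 3 higher, 2 to 2 lower and 3 to 3 past 2-fold. The last count was 2 with at least 10 counts in every library, where Bmp4 is missing, and 2 with limma on log2(FPKM + 1), where Bmp6 was at −0.87. Over all genes these fits gave 3935 to 5088 past the adjusted p and 1493 to 1546 past 2-fold as well, where limma on log2(FPKM + 1) gave 626. The fold of Bmp4 ranged from 18.8 to 35.8 in them. Bmpr2 changed sign without lone replicate 2 (−0.066), cocultured replicate 1 (−0.01) and cocultured replicate 3 (−0.05), and it ranged from −0.066 to 0.12 with each library left out and passed the threshold in no fit. Library size as the only scaling moved the median of all genes tested from 0.00 to 0.07.

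Differences in composition, cocultured minus alone, were 61.0 percentage points for the Bmp2 share (59.7 to 62.4 leaving out a library), −3.48 for the Bmpr1a share (−4.66 to −2.85), −9.83 for the Bmpr2 share (−11.0 to −8.68), 0.214 for the type II to type I ratio (0.190 to 0.241) and −0.0283 for the ligand to receptor ratio (−0.0364 to −0.0196). A wider base added the other BMP and GDF ligands on the list. Among receptors it added Acvrl1, Acvr1b, Acvr1c and Tgfbr1 to type I, and Tgfbr2 and Amhr2 to type II. These include receptors of activins and transforming growth factor-β. On that base the differences were 17.0 for Bmp2, −0.0919 for Bmpr1a, −2.28 for Bmpr2 and −0.0437 for the ligand to receptor ratio. Both receptor shares then overlapped between groups. When Gdf11 was also counted, a choice made after seeing the data, the Bmp2 difference was 8.28 and the ligand to receptor difference turned to 0.0383. In counts the ligand to receptor difference was −0.00705. With GENCODE lengths, chosen after seeing the data, the Bmp2 difference was 67.5 and the type II to type I difference 0.156. The ligand to receptor difference was then −0.0412, with no overlap between groups.

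Libraries with the same replicate number did not deviate together (correlations of 0.0157, −0.0256 and −0.0036). With 3 libraries per group, this cannot exclude a shared animal or batch. The replicate block called 5 of the 10 genes and 4513 genes in all, changed no call among the 10, and gave −4.58 for Bmp4 and 1.78 for Bmp2. Low counts limit Bmp4 after coculture, and Bmp7 and Acvr2b in both groups.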
